A study of Mus musculus with 15 samples.

Results

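Interferon-stimulated genes are the genes that a cell switches on when interferon reaches its receptors. A set of 47 of them was named by symbol, and all 47 were found among the 24421 genes of the deposited count table and passed the filter on low counts that left 16752 genes to test. By role they comprise 10 genes of the Ifit, Oas and Mx families, which respond foremost to type I interferon, 8 guanylate-binding proteins and immunity-related GTPases (Gbp2, Gbp3, Gbp5, Gbp7, Iigp1, Irgm1, Irgm2 and Igtp), which respond foremost to interferon-gamma, 5 transcription factors, 7 sensors of nucleic acid, 6 proteins of the ISG15, TRIM and PARP groups and 11 other effectors. The set was measured by RNA sequencing in whole kidneys of wild-type mice at day 14 after the operation, in 3 groups. The UUO_Si group (6 libraries) had unilateral ureteral obstruction, a surgical tie of 1 ureter that injures and scars the kidney above it, and ate a Si-based diet, which the labels describe no further. The UUO group (6 libraries) had the same obstruction on normal diet, and the sham group (3 libraries) had a sham operation on normal diet. All groups share the wild-type genotype, and the diet was compared here only in obstructed kidneys. The labels give tissue, genotype, treatment, a replicate number and a code in the title. What the number and the code mark is not given, so the p-values below measure the spread between these libraries. The comparison of UUO with sham asks what the obstruction does, and the comparison of UUO_Si with UUO asks what the diet does in the obstructed kidney.

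Type I interferons signal through the receptor Ifnar1 and Ifnar2 to a complex that holds Stat2 and Irf9 and binds the interferon-stimulated response element (ISRE) in front of genes such as Ifit1 and Oas1a. Interferon-gamma signals through Ifngr1 and Ifngr2 to the gamma-activated site (GAS) and switches on Irf1 and, with it, GTPases that attack vacuoles holding microbes. The target lists of the interferons overlap, and many targets also follow sensors of nucleic acid from damaged cells.

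The promoters of 4 members of the first 2 classes and of Irf1 are shown because they carry these motifs and because the results below turn on these classes. Each is the 160 bases before the transcription start in RefSeq on build GRCm38.p6, 5′ to 3′ on the strand of the gene, with capitals marking a match to the ISRE core (GAAA, any 2 bases, GAAA) or to the GAS TTCNNNGAA on either strand. They lie at chr19:34583369-34583528 (Ifit3, plus strand), chr5:120777660-120777819 (Oas3, minus strand), chr3:142620503-142620662 (Gbp2, plus strand), chr11:58199396-58199555 (Igtp, plus strand) and chr11:53769854-53770013 (Irf1, plus strand).
Ifit3: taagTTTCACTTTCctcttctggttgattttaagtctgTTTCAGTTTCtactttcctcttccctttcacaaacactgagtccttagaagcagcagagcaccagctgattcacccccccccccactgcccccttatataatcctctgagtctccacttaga
Oas3: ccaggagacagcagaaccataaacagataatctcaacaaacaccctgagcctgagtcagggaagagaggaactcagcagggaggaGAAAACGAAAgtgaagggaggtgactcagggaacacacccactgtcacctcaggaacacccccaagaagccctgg
Gbp2: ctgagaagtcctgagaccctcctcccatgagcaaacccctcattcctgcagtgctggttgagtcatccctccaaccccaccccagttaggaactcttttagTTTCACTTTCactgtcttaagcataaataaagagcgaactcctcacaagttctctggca
Igtp: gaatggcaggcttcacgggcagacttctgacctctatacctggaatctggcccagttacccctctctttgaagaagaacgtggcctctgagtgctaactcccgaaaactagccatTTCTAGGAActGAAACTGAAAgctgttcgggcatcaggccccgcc
Irf1: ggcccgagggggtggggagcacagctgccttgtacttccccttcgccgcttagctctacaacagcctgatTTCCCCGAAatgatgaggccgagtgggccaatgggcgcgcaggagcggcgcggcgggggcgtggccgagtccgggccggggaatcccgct
In Ifit3 the ISRE cores began 156 and 122 bases before the start. In Gbp2 the core began 59 bases and in Oas3 75 bases before it. Igtp held both motifs side by side, the GAS 45 bases and the ISRE core 34 bases before the start, and Irf1 held a GAS at 90 bases and no ISRE core.

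A window from 250 bases before to 50 bases after the RefSeq start was at hand for 35 of the 47 members. The ISRE core stood in 20 of these 35 windows, against 3.99% of the windows of 27025 genes. It stood in 7 of 7 windows of the Gbp and Irg class, 4 of 7 of the Ifit, Oas and Mx class, 4 of 4 of the sensors, 1 of 5 of the transcription factors, 2 of 3 of the ISG15, TRIM and PARP class and 2 of 9 of the other effectors. The GAS stood in 12 of the 35, against 9.55% of all windows: Gbp5, Gbp7, Irgm2, Igtp, Ifit2, Oas1a, Irf1, Irf8, Eif2ak2, Isg20, Bst2 and Ifi35. In Bst2 the GAS and an ISRE core overlapped. GENCODE starts Gbp2 at base 142620602 of chromosome 3, inside the stretch printed. The marked ISRE core of Gbp2 thus lies before the RefSeq start and after the GENCODE start. A match in these letters is a description of the window and not a measured binding site.

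Library totals, in units of 1000000 counts, were 7.75 to 11.5 in UUO_Si, 11.2 to 15.4 in UUO and 5.53 to 8.31 in sham kidneys. Across all genes, 27.5% of the 16752 were called higher and 26.4% lower in UUO than in sham kidneys. Markers of kidney tubule were present in all libraries: the summed level of 6 proximal tubule markers was 505 to 1440 CPM (counts scaled to 1000000 per library) in UUO_Si, 641 to 1231 CPM in UUO and 11275 to 13596 CPM in sham kidneys. A group of 4 libraries stood apart, UUO_Si replicate 6, UUO replicates 5 and 6 and sham replicate 3. In these, 828 to 1281 of 1456 olfactory and vomeronasal receptor genes had at least 1 count, against 101 to 166 in the other 11. The title codes of UUO_Si replicate 6 and UUO replicates 5 and 6 have another first digit than the rest of their groups. That of sham replicate 3 has the same first digit as the other sham libraries. Members whose call changed, or whose fold moved by over 1.5 times, without these 4 libraries are given below with and without them.

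Obstruction raised most of the set. In UUO kidneys 39 of the 47 members were called higher than in sham kidneys and 0 lower, where 27.5% of all genes tested were called higher (edgeR's quasi-likelihood test, Benjamini-Hochberg adjusted p under 0.05 over all genes tested). The median log2 change of the members was 1.04, against -0.04 over all genes tested. In UUO_Si kidneys 37 of the 47 were called higher than in sham kidneys and 0 lower, where 27.2% of all genes were called higher and 25.5% lower, with a median of 1.05. Every UUO library lay above every sham library in 35 members, where 24.6% of all genes did so, and every UUO_Si library lay above every sham library in 32, where the share was 24%. Whether more cells of a responding type or more RNA per cell raised a level cannot be told apart in whole kidney. Without the 4 libraries that stood apart, 41 members were called higher in UUO and 40 in UUO_Si than in sham kidneys, and the UUO median was 1.29. Both comparisons share the 3 sham libraries.

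**Figure D1:**
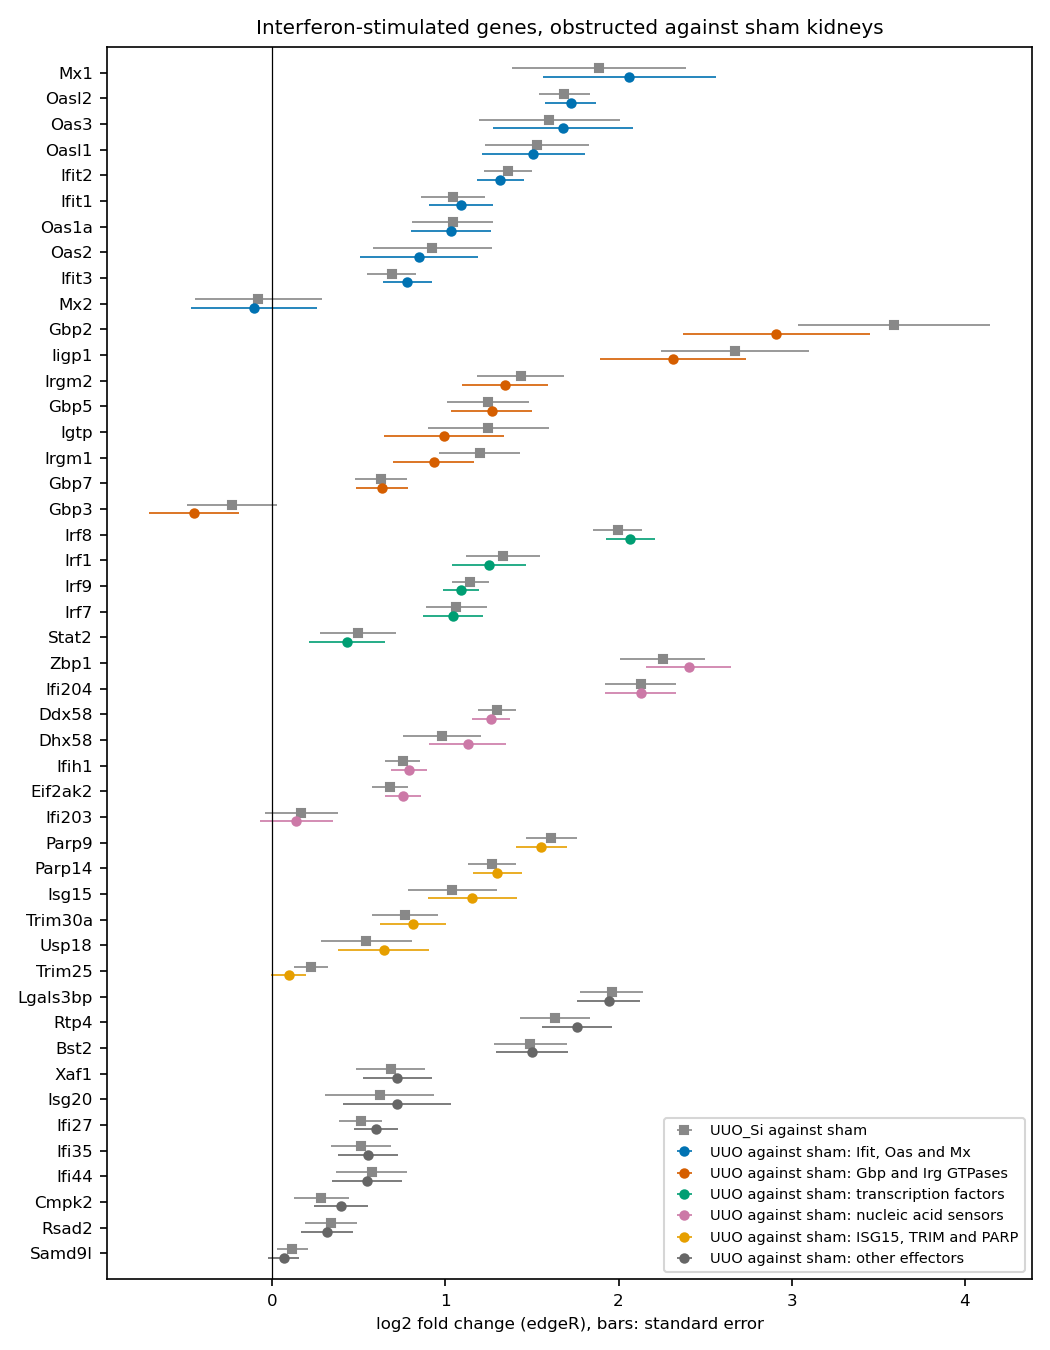
Log2 fold change of each of the 47 members (points, with the standard error as bars; 1 gene a line, grouped by class), UUO_Si against sham as grey squares and UUO against sham as coloured circles. The highest UUO value is 2.91 for Gbp2, and Mx2 and Gbp3 are the members below 0.

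In the Ifit, Oas and Mx class, 9 of 10 members were called higher in UUO than in sham kidneys and 9 of 10 in UUO_Si than in sham kidneys, with median log2 changes of 1.20 and 1.20. Beside this and the class counts below stand the shares of all genes called higher, 27.5% in UUO and 27.2% in UUO_Si. Ifit3 was the most abundant of the class per length, at 40.6 CPM per kilobase of exon in UUO_Si, 43.2 in UUO and 25.2 in sham kidneys. Its levels ran from 58.2 CPM over a median of 71.7 to 83.6 CPM in UUO_Si, from 59.8 over 73.8 to 88.9 CPM in UUO, and were 40.3, 49.1 and 42.4 CPM in sham kidneys. No obstructed library reached down to a sham library. The log2 change was 0.78 ± 0.14 (SE) in UUO against sham (adjusted p = 0.000166, edgeR's quasi-likelihood test) and 0.69 ± 0.14 in UUO_Si against sham.

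Oasl2, a relative of the 2′-5′ oligoadenylate synthetases that sense double-stranded RNA, had a narrow spread within the sham group. It ran from 61.1 over 77.8 to 90.3 CPM in UUO_Si, from 66.0 over 76.7 to 95.7 CPM in UUO, and was 23.2, 22.9 and 24.8 CPM in sham kidneys. The groups on either diet stood clear of sham, with log2 changes of 1.69 ± 0.15 in UUO_Si and 1.72 ± 0.15 in UUO (adjusted p = 5.99e-08 and 3.92e-08, edgeR). Mx1, a GTPase that blocks influenza virus, had the highest log2 change of the class in UUO, 2.06 ± 0.50 (adjusted p = 0.00207, edgeR). It ran from 4.75 over 11.7 to 19.6 CPM in UUO_Si, from 7.99 over 12.4 to 19.5 CPM in UUO, and was 1.86, 1.44 and 6.44 CPM in sham kidneys. The sham library at 6.44 CPM and the lowest UUO_Si library at 4.75 CPM, which overlap, are both among the 4 libraries that stood apart. Without sham replicate 3 the log2 change of Mx1 was 2.80 in UUO_Si and 2.98 in UUO, and without all 4 it was 2.97 and 3.20.

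Mx2, the partner gene of Mx1 on chromosome 16, did not pass the test in either comparison with sham. It ran from 4.33 over 8.56 to 13.8 CPM in UUO_Si, from 4.80 over 8.13 to 13.6 CPM in UUO, and was 6.02, 9.43 and 11.9 CPM in sham kidneys, so the groups overlapped in full. Its log2 change was -0.08 ± 0.37 in UUO_Si and -0.11 ± 0.36 in UUO, and without the 4 libraries that stood apart it was 0.30 and 0.40, still not past the test. The other members of the class (Ifit1, Ifit2, Oas1a, Oas2, Oas3 and Oasl1) had log2 changes between 0.85 for Oas2 and 1.68 for Oas3 in UUO. Oas3 too moved with sham replicate 3: without it the log2 change was 2.71 in UUO_Si and 2.78 in UUO, against 1.60 and 1.68 with it, and without all 4 libraries that stood apart it was 2.64 and 2.94. The call of Oas2 was the weakest: its adjusted p was 0.0441 in UUO against sham (edgeR), its groups overlapped, and leaving out 1 library at a time ended the call in 9 of 15 cases.

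In the Gbp and Irg class, 7 of 8 members were called higher in UUO than in sham kidneys and 7 of 8 in UUO_Si than in sham kidneys, with median log2 changes of 1.13 and 1.25. Gbp2, a guanylate-binding protein that coats vacuoles of intracellular microbes, rose the most of all 47 members. It ran from 65.0 over 100.2 to 367 CPM in UUO_Si, from 62.8 over 83.9 to 124 CPM in UUO, and was 13.9, 10.2 and 10.04 CPM in sham kidneys. No library of either obstructed group came near the sham libraries. The fold was 12.04 in UUO_Si and 7.53 in UUO against sham, or log2 changes of 3.59 ± 0.56 and 2.91 ± 0.54 (adjusted p = 3.58e-05 and 0.000212, edgeR). With 1 library left out the log2 change ran from 3.01 to 3.78 in UUO_Si and from 2.75 to 3.10 in UUO.

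Iigp1, an immunity-related GTPase on chromosome 18 that disrupts the vacuole of Toxoplasma, had the second highest log2 change of the class. It ran from 45.8 over 63.7 to 190.1 CPM in UUO_Si, from 58.8 over 65.7 to 98.2 CPM in UUO, and was 12.04, 15.5 and 16.3 CPM in sham kidneys. Its log2 change was 2.67 ± 0.43 in UUO_Si and 2.31 ± 0.42 in UUO (adjusted p = 5.11e-05 and 0.000176, edgeR), with no overlap between obstructed and sham libraries. Irgm1, which regulates the other immunity-related GTPases, ran from 59.3 over 73.5 to 149.6 CPM in UUO_Si, from 68.1 over 72.4 to 84.4 CPM in UUO, and was 40.1, 35.6 and 42.2 CPM in sham kidneys. It too stood clear of sham in both obstructed groups, with log2 changes of 1.20 ± 0.24 in UUO_Si and 0.93 ± 0.23 in UUO.

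The 4 Gbp members sit together on chromosome 3, and their log2 changes in UUO ran from -0.45 for Gbp3 to 2.91 for Gbp2. Gbp7 had 68.1 over 87.1 to 117 CPM in UUO_Si, 76.0 over 89.6 to 109.7 CPM in UUO and 60.8, 51.1 and 63.3 CPM in sham kidneys, a log2 change of 0.64 ± 0.15 in UUO (adjusted p = 0.00166, edgeR). Gbp3 had 70.0 over 86.8 to 199 CPM in UUO_Si, 77.4 over 94.3 to 117 CPM in UUO and 126, 128 and 139 CPM in sham kidneys. Every UUO library lay below every sham library for Gbp3, which 22.3% of all genes also did, while 2 of the 6 UUO_Si libraries lay above all 3. Its log2 change was -0.23 ± 0.26 in UUO_Si and -0.45 ± 0.26 in UUO (adjusted p = 0.473 and 0.151, edgeR). With only the UUO and sham libraries in the fit, Gbp3 was called lower, at an adjusted p of 0.0139 (edgeR).

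Gbp5, Irgm2 and Igtp were called higher in both comparisons, with log2 changes in UUO of 1.27, 1.34 and 0.99. Irgm2 and Igtp share 162 exon bases on the same strand of chromosome 11, so reads there could be credited to either. Without the 4 libraries that stood apart the log2 change of Igtp was 1.16 ± 0.50 in UUO_Si and 1.104 ± 0.51 in UUO against sham, near the 1.25 ± 0.35 and 0.99 ± 0.35 with them, but with the larger errors it was no longer called (adjusted p = 0.0692 and 0.0878, edgeR). In UUO it also lost its call without sham replicate 2 (adjusted p = 0.126, edgeR). The Gbp genes are related to each other, as are the Irg genes, and all 8 had fractional counts in at least 5 of the 15 libraries. Fractional counts were not particular to them. In at least 1 library they also stood in 6 of 10 Ifit, Oas and Mx members and 2 of 5 transcription factors. The same held for 4 of 7 sensors, 4 of 6 ISG15, TRIM and PARP members and 6 of 11 other effectors. What made a count fractional was not tested. How the counting treated reads that match more than 1 gene is not given in the sources used here.

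**Figure D2:**
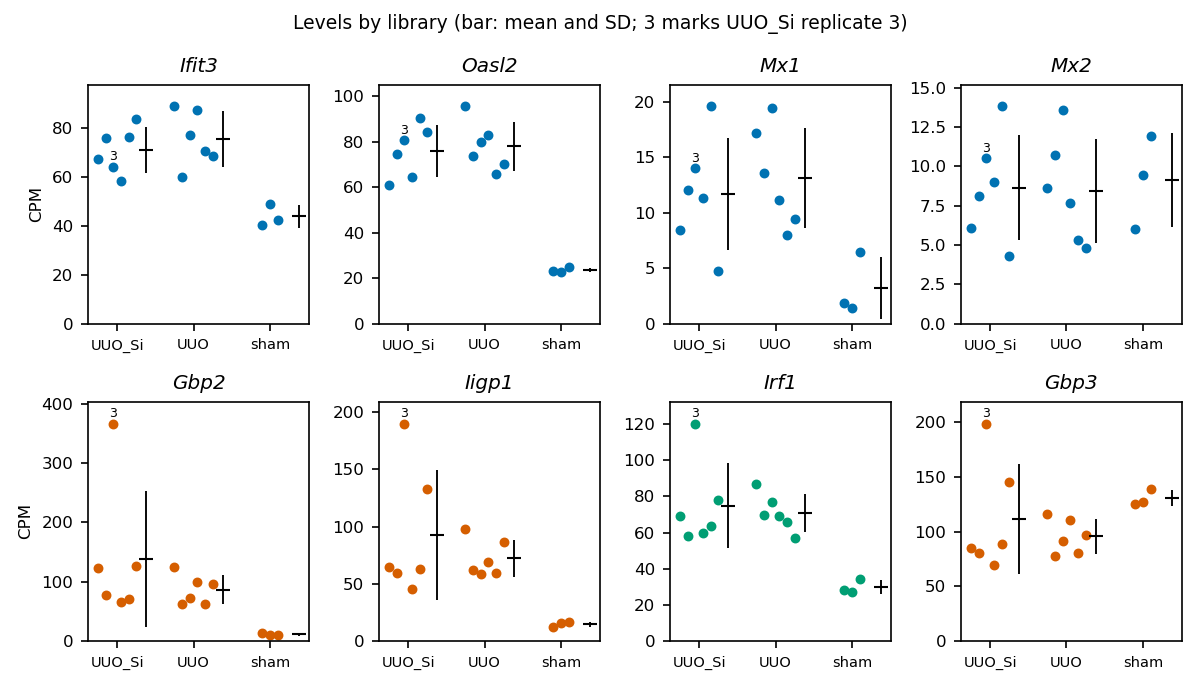
Level in CPM of 8 members in each library (points; bars show mean and SD; UUO_Si n = 6, UUO n = 6, sham n = 3), with the digit 3 marking UUO_Si replicate 3. That library is the highest point for Gbp2 at 367 CPM, Iigp1 at 190.1 CPM, Irf1 at 120.3 CPM and Gbp3 at 199 CPM, and lies inside its group for Ifit3, Oasl2, Mx1 and Mx2.

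Among the 5 transcription factors, 4 were called higher in both comparisons with sham, with median log2 changes of 1.14 in UUO_Si and 1.09 in UUO. Irf8, a factor of macrophage and dendritic cell development, ran from 60.4 over 70.6 to 79.7 CPM in UUO_Si, from 62.6 over 73.5 to 85.1 CPM in UUO, and was 15.9, 17.1 and 20.3 CPM in sham kidneys. Its log2 change of 2.07 ± 0.14 in UUO had the smallest adjusted p of the 47 members, 3.49e-09 (edgeR). Irf1, an early target of interferon-gamma, ran from 58.1 over 66.6 to 120.3 CPM in UUO_Si, from 56.8 over 69.2 to 87.1 CPM in UUO, and was 28.2, 27.0 and 34.1 CPM in sham kidneys. Obstructed and sham libraries did not overlap for either gene, and the log2 change of Irf1 was 1.33 ± 0.21 in UUO_Si and 1.25 ± 0.21 in UUO.

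Irf7, which amplifies the transcription of type I interferon genes, ran from 43.2 over 49.4 to 71.3 CPM in UUO_Si, from 39.6 over 52.4 to 62.8 CPM in UUO, and was 21.1, 26.9 and 28.0 CPM in sham kidneys. Its log2 change in UUO was 1.04 ± 0.17 (adjusted p = 7.48e-05, edgeR), and that of Irf9, the DNA-binding part of the type I complex, was 1.09 ± 0.11. Stat2, another part of that complex, ran from 55.1 over 74.3 to 98.3 CPM in UUO_Si, from 48.4 over 78.5 to 90.0 CPM in UUO, and was 53.3, 64.6 and 44.5 CPM in sham kidneys. The groups overlapped, and the log2 changes of 0.50 ± 0.22 in UUO_Si and 0.43 ± 0.22 in UUO did not pass (adjusted p = 0.0681 and 0.110, edgeR). Without the 4 libraries that stood apart Stat2 passed in both, at 0.46 ± 0.16 in UUO_Si and 0.52 ± 0.17 in UUO (adjusted p = 0.0225 and 0.0143, edgeR). In UUO_Si it also passed with DESeq2 (adjusted p = 0.0462), with upper-quartile scaling and in 4 more of the alternatives run, so that its call depends on the setting.

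Of the 7 sensors, 6 were called higher in both comparisons with sham, with median log2 changes of 0.98 in UUO_Si and 1.13 in UUO. Zbp1, which binds left-handed nucleic acid and can start necroptosis, ran from 13.5 over 16.8 to 26.7 CPM in UUO_Si, from 17.1 over 19.8 to 22.8 CPM in UUO, and was 3.58, 4.16 and 3.41 CPM in sham kidneys. Ifi204, a DNA sensor, ran from 46.5 over 62.1 to 71.8 CPM in UUO_Si, from 50.2 over 62.1 to 66.5 CPM in UUO, and was 14.6, 8.15 and 18.9 CPM in sham kidneys. Neither gene overlapped between obstructed and sham libraries. In UUO the log2 change was 2.41 ± 0.25 for Zbp1 and 2.13 ± 0.20 for Ifi204 (adjusted p = 3.02e-07 and 1.52e-07, edgeR).

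Ifi203, a relative of Ifi204 on chromosome 1, had its highest sham value and its 2 lowest UUO values in libraries that stood apart. It ran from 79.97 over 91.6 to 118 CPM in UUO_Si, from 58.5 over 98.9 to 116 CPM in UUO, and was 73.7, 71.3 and 107 CPM in sham kidneys. The log2 change in UUO was 0.14 ± 0.21 over all libraries (adjusted p = 0.592, edgeR) and 0.58 ± 0.13 without those 4 (adjusted p = 0.00126, edgeR), where Ifi203 passed. In UUO_Si it was 0.17 ± 0.21 over all libraries and passed without those 4, at 0.43 ± 0.13 (adjusted p = 0.00876, edgeR). Eif2ak2, the kinase PKR that halts translation on double-stranded RNA, ran from 79.0 over 89.8 to 97.4 CPM in UUO_Si, from 79.3 over 91.5 to 112 CPM in UUO, and was 57.2, 56.1 and 53.8 CPM in sham kidneys. It did not overlap with sham, at a log2 change of 0.68 ± 0.10 in UUO_Si and 0.76 ± 0.10 in UUO. The RNA sensors Ddx58 (RIG-I), Ifih1 (MDA5) and their regulator Dhx58 (LGP2) had log2 changes of 1.26, 0.79 and 1.13 in UUO.

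In the ISG15, TRIM and PARP class, 4 of 6 members were called higher in UUO_Si than in sham kidneys and 5 of 6 in UUO than in sham kidneys. Parp9, an ADP-ribosyltransferase partner of the ubiquitin ligase Dtx3l, ran from 57.5 over 75.9 to 90.5 CPM in UUO_Si, from 59.4 over 70.4 to 85.6 CPM in UUO, and was 21.8, 26.5 and 24.6 CPM in sham kidneys. Parp14, another enzyme of that family, ran from 184 over 215 to 245 CPM in UUO_Si, from 175 over 235 to 259.7 CPM in UUO, and was 88.3, 95.6 and 85.1 CPM in sham kidneys. Both stood clear of sham, with log2 changes in UUO of 1.55 ± 0.15 and 1.30 ± 0.14 (adjusted p = 1.23e-07 and 5.98e-07, edgeR). Parp9 and Dtx3l share 458 exon bases on opposite strands, and the strand setting of the counting is not given in the sources used here.

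Usp18, the protease that removes ISG15 and damps the type I receptor, ran from 13.5 over 15.4 to 21.4 CPM in UUO_Si, from 12.9 over 16.7 to 22.4 CPM in UUO, and was 8.17, 7.67 and 17.8 CPM in sham kidneys. The third sham library, one of the 4 that stood apart, lay inside the range of both obstructed groups. The log2 change was 0.54 ± 0.26 in UUO_Si, which did not pass (adjusted p = 0.0934, edgeR), and 0.64 ± 0.26 in UUO (adjusted p = 0.0481, edgeR), a call lost in 11 of the 15 fits that left out 1 library. Without those 4 libraries Usp18 passed in both, at 1.06 ± 0.22 in UUO_Si and 1.30 ± 0.22 in UUO. Trim25, the ubiquitin ligase that activates RIG-I, ran from 122 over 129.5 to 134 CPM in UUO_Si, from 106 over 118 to 129 CPM in UUO, and was 126, 114 and 90.4 CPM in sham kidneys. Its groups overlapped in both comparisons, and it did not pass, at 0.22 ± 0.10 in UUO_Si and 0.10 ± 0.10 in UUO. In UUO_Si its call depended on the setting, and 4 of the alternatives run called it higher. These were DESeq2 (adjusted p = 0.0496) and edgeR with upper-quartile scaling (adjusted p = 0.00891), with the replicate block (adjusted p = 0.0468) and without sham replicate 1 (adjusted p = 0.0218). Isg15 itself and Trim30a had log2 changes of 1.16 and 0.81 in UUO and were called higher.

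The 11 other effectors had the lowest class medians, with log2 changes of 0.57 in UUO_Si and 0.60 in UUO, and 7 and 8 members called higher. Lgals3bp, a secreted glycoprotein that binds galectin-3, was the most abundant member of the whole set per length, at 68.2 CPM per kilobase of exon in UUO_Si, 67.4 in UUO and 17.6 in sham kidneys. Its levels ran from 154 over 182 to 266 CPM in UUO_Si, from 149 over 189.5 to 230.2 CPM in UUO, and were 43.3, 49.4 and 57.4 CPM in sham kidneys. Rtp4, a chaperone of receptor trafficking, ran from 16.7 over 19.8 to 25.2 CPM in UUO_Si, from 17.6 over 21.3 to 27.6 CPM in UUO, and was 5.30, 5.59 and 8.52 CPM in sham kidneys. Neither gene overlapped with sham, and their log2 changes in UUO were 1.94 ± 0.18 and 1.76 ± 0.20 (adjusted p = 1.25e-07 and 1.25e-06, edgeR).

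At the other end of this class stood Rsad2 and Samd9l. Rsad2, or viperin, which makes a chain terminator of viral RNA, ran from 37.3 over 47.004 to 52.5 CPM in UUO_Si, from 37.2 over 44.6 to 57.9 CPM in UUO, and was 30.7, 37.9 and 42.4 CPM in sham kidneys. Samd9l, a restriction factor, ran from 207 over 222 to 248 CPM in UUO_Si, from 199 over 219 to 237 CPM in UUO, and was 215, 185 and 219 CPM in sham kidneys. Both overlapped with sham and did not pass in UUO, at 0.32 ± 0.15 and 0.07 ± 0.09 (adjusted p = 0.0870 and 0.548, edgeR). Without the 4 libraries that stood apart Rsad2 passed in both, at 0.45 ± 0.16 in UUO_Si and 0.53 ± 0.16 in UUO (adjusted p = 0.0223 and 0.0102, edgeR). Isg20, an exonuclease, had a log2 change of 0.72 ± 0.31 in UUO, which did not pass (adjusted p = 0.0619, edgeR). DESeq2 (adjusted p = 0.0491) and limma-voom (adjusted p = 0.0286) called it higher, and so did edgeR without the 4 libraries, at 0.97 ± 0.38 in UUO_Si and 0.98 ± 0.39 in UUO. Bst2 (tetherin), Xaf1, Ifi27, Ifi35, Ifi44 and Cmpk2 were called higher in UUO, with log2 changes from 0.40 for Cmpk2 up to 1.499 for Bst2. Of these, Ifi44, Ifi35 and Cmpk2 lost the call in some fits that left out 1 library, among them the fit without sham replicate 1. Without the 4 libraries that stood apart Ifi35 lost its call in UUO_Si (adjusted p = 0.0535, edgeR) and Cmpk2 in UUO (adjusted p = 0.0653, edgeR).

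The diet changed no member past the test. Between UUO_Si and UUO kidneys 0 of the 47 members were called by edgeR's quasi-likelihood test, where 0% of the 16752 genes were called, and 0 members had an unadjusted p under 0.05, where 626 of all genes did. DESeq2 called 0 members and limma-voom with sample weights called 0, with 0 and 4 members at an unadjusted p under 0.05. The log2 change was above 0 for 24 members, where 50.3% of all genes were, and below 0 for 23, with a median of 0.00, and 42 of the 47 lay within 0.2 of 0. The libraries of the diets overlapped in all 47 members, as in nearly all genes: every UUO_Si library lay above every UUO library in 0.107% of the genes tested and below in 0.0955%. The standard errors of the members, up to 0.35 for Gbp2, set what this comparison could resolve.

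**Figure D3:**
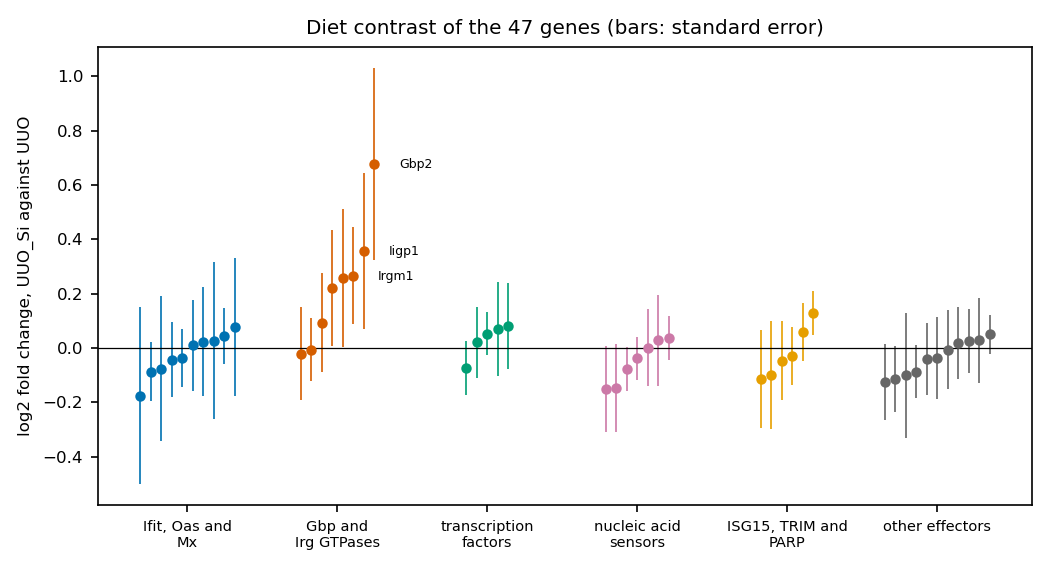
Log2 fold change of UUO_Si against UUO for each of the 47 members (points, with the standard error as bars), by class. The Gbp and Irg class reaches 0.68 for Gbp2 and 0.36 for Iigp1, while no member of another class lies further than 0.18 from 0.

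The members with the smallest p between the diets were Gbp2, Trim25, Irgm1 and Iigp1. Gbp2 had a log2 change of 0.68 ± 0.35 (unadjusted p = 0.0723, adjusted p = 0.999, edgeR), Trim25 of 0.13 ± 0.08, Irgm1 of 0.27 ± 0.18 and Iigp1 of 0.36 ± 0.29, none of which passed. The libraries of the diets overlapped for each of the 4. The 3 GTPase values were nearer 0 when 1 library was left out. Without UUO_Si replicate 3 the log2 change was 0.10 for Gbp2, 0.06 for Irgm1 and 0.02 for Iigp1, and the median of the Gbp and Irg class was -0.01, against 0.24 with it.

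Type I targets and interferon-gamma targets differed in that library. UUO_Si replicate 3 was the highest of the 12 obstructed libraries in 8 of the 8 Gbp and Irg members and in 0 of the 10 Ifit, Oas and Mx members. It had 367 CPM of Gbp2, where the other UUO_Si libraries had 65.0 to 126 CPM, and 120.3 CPM of Irf1, where the others had 58.1 to 78.2 CPM. Of all 47 members it was the highest in 12. The library was singled out by these GTPase values, and the 8 genes come from families of related genes. The share of all genes that peaked in it is not given here. UUO_Si replicate 6 was among the 2 highest in 5 of the 8 GTPases, and UUO_Si replicate 4 was the lowest in 7 of 8. The Ifit, Oas and Mx members peaked elsewhere, 5 of the 10 in UUO_Si replicate 5 and 4 in UUO replicate 1. Counts of the ribosomal RNA precursor Rn45s were also highest of the 12 in UUO_Si replicate 3, at 4.45% of its counts against 2.07% to 3.26% in the other 11, and their part in the GTPase values was not tested.

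The mean log2 level of each class, set against its mean over the sham libraries, is plotted per library. For the Gbp and Irg class it ran from 0.76 to 2.29 in UUO_Si (mean 1.37 ± 0.55 SD, n = 6) and from 0.99 to 1.57 in UUO (1.24 ± 0.22 SD, n = 6), while the sham libraries lay between -0.19 and 0.16. For the Ifit, Oas and Mx class it ran from 0.96 to 1.53 in UUO_Si (1.18 ± 0.21 SD) and from 0.87 to 1.55 in UUO (1.20 ± 0.27 SD), while the sham libraries lay between -0.28 and 0.46. The difference of the class means, Gbp and Irg minus Ifit, Oas and Mx, was 1.05 in UUO_Si replicate 3, 0.70 in UUO_Si replicate 6 and -0.40 to 0.24 in the other 4 UUO_Si libraries. In UUO kidneys it was -0.31 to 0.39 and in sham kidneys -0.30 to 0.30. These are descriptions of single libraries, and no test was made on a class mean.

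**Figure D4:**
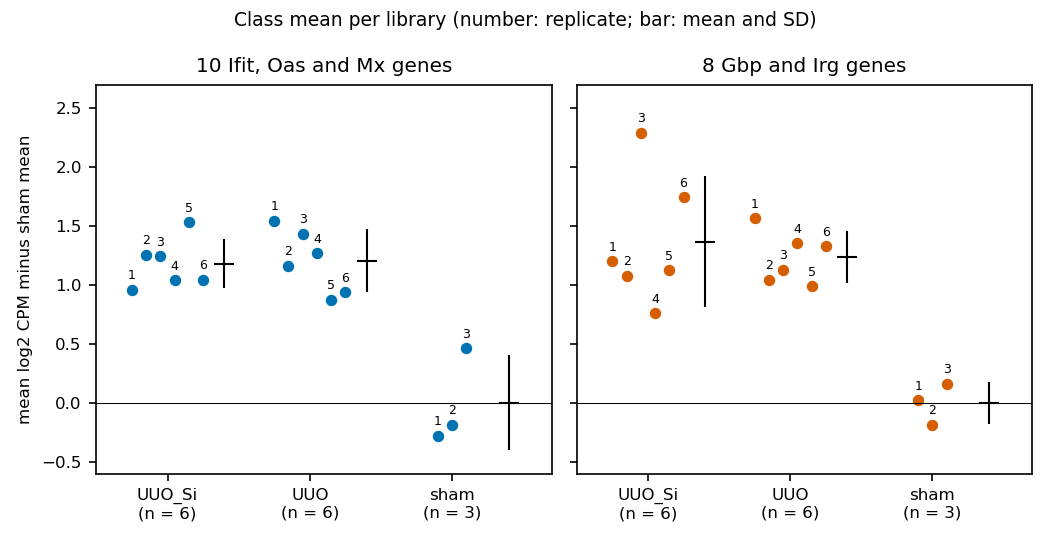
Mean log2 CPM of the 10 Ifit, Oas and Mx genes (left) and of the 8 Gbp and Irg genes (right) in each library, minus the sham mean; digits are replicate numbers, bars show mean and SD (UUO_Si n = 6, UUO n = 6, sham n = 3). UUO_Si replicate 3 is the highest point on the right at 2.29 and is at 1.24 on the left.

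Part of the further interferon targets also peaked in that library. Of 41 further interferon targets tested, 15 had their highest obstructed value in UUO_Si replicate 3, 8 in UUO_Si replicate 5 and 7 in UUO_Si replicate 6, and 4 had their lowest in UUO_Si replicate 3. The 15 held the GTPase Tgtp1 with 141 CPM, Gbp6 with 122 CPM and Gbp10 with 57.9 CPM, as well as Nlrc5, Psmb8, Psmb9, Tap1 and B2m, and none of the further Ifit or Oas genes. Gbp6 and Gbp10 belong to a family whose values singled the library out. The share of all genes that peaked in that library is not given here, so the count is not read as a trait of interferon targets. Socs1, a brake on cytokine receptor signalling, was at 8.60 CPM there, and the chemokine Cxcl9 was at 40.1 CPM, close to the 35.8 CPM of UUO replicate 1. The summed level of 11 T and NK cell markers was 62.2 CPM in UUO_Si replicate 3, 62.1 CPM in UUO_Si replicate 6 and 61.8 CPM in UUO replicate 4, with the other obstructed libraries at 32.3 to 53.6 CPM. The summed level of 10 macrophage markers was 1260 CPM in UUO_Si replicate 3, inside the range of its group. The part of these cells in the library's GTPase levels was not tested.

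Interferon transcripts themselves were scarce. Over the 11 libraries that did not stand apart, 13 Ifna genes had 1 count in all and Ifnb1 had 0, which allows up to 0.0266 CPM, taken as 3 counts of the total of those libraries. In the 4 libraries that stood apart the Ifna genes had 122 counts and Ifnb1 11. Ifng had 27 counts over the 11 libraries and 33 over the 4. Of the 27, 8 were in UUO replicate 4, 5 in UUO_Si replicate 3, and 4 each in UUO replicate 1 and sham replicate 1. Of the 33, 12 were in UUO_Si replicate 6, 9 in UUO replicate 6, 7 in sham replicate 3 and 5 in UUO replicate 5. Only Ifnk of 21 ligand genes passed the filter on low counts, and it did not pass the test (log2 change -0.29 in UUO against sham). These limits cover counting error only.

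The receptors rose together. All 6 interferon receptor chains were called higher in UUO_Si and in UUO than in sham kidneys (edgeR's quasi-likelihood test). Of all genes, 27.2% were called higher in UUO_Si and 27.5% in UUO. Ifngr2 ran from 67.2 over 79.6 to 102 CPM in UUO_Si, from 68.3 over 83.0 to 112 CPM in UUO, and was 12.8 to 14.5 CPM in sham kidneys, a log2 change of 2.63 in UUO. Ifngr1 had 2.17, Ifnar1 1.09, Ifnlr1 1.06, Ifnar2 1.04 and Il10rb 0.74 in UUO. Between the diets 0 of the 6 passed, with log2 changes from -0.17 to 0.04.

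Downstream of the receptors, Irf5 (log2 change 1.19 in UUO against sham), Jak1 (0.81) and Jak2 (0.36) were called higher, Irf3 (-0.71) was called lower, and Tyk2 and Irf2 did not pass. For these and the lists that follow, 27.5% of all genes were called higher in UUO and 26.4% lower. Of 11 genes that induce interferon, 8 were called higher in UUO: the DNA-sensing adaptor Tmem173 (STING) at 2.77, the endosomal receptors Tlr9 at 2.65, Tlr7 at 2.43 and Tlr3 at 1.36, the adaptor Myd88 at 1.17, the kinase Ikbke at 1.104, and Mb21d1 (cGAS) and Traf3 at 1.08 each. Mavs, the adaptor of RIG-I and MDA5, was called lower at -0.84, and Ticam1 and Tbk1 did not pass. Among 8 genes that restrain the pathway, 6 were called higher, led by Socs3 at 4.41, Socs1 at 1.73 and Samhd1 at 1.30. The chemokines Cxcl10 and Cxcl9 were called higher at 3.13 and 1.84, and Cxcl11 did not pass. Every gene named in these lists had the same call in UUO_Si against sham as in UUO against sham.

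Of the 41 further targets, 28 were called higher and 1 lower in UUO than in sham kidneys, and 30 were higher and 1 lower in UUO_Si than in sham kidneys. Over all genes, 27.5% were called higher and 26.4% lower in UUO, and 27.2% higher and 25.5% lower in UUO_Si. The highest log2 changes in UUO were those of Ly6e (2.52), Psmb8 (2.31), Ifi47 (2.25), Psmb9 (2.21) and Epsti1 (2.198). The gene that was lower was Ifit1bl2, an Ifit relative, at -1.04 ± 0.32 (adjusted p = 0.0118, edgeR). Tap1, a peptide transporter, had 2.08, B2m, the light chain of class I molecules, had 2.04, and Nlrc5, an activator of class I genes, had 1.20. Tgtp1, Gbp8, Gbp9, Ifi27l2a, Ifitm1, Ifitm2, Ifitm3, Ifit3b, Oas1g, Ifi205, Phf11d, Phf11b, Sp100, Pml, Slfn2, Slfn5, Slfn8, Parp12, Tor3a and Nmi were the others called higher.

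Macrophage and fibroblast markers also rose with obstruction. All 10 macrophage markers were called higher in both obstructed groups, where 27.2% of all genes were in UUO_Si and 27.5% in UUO. Their summed level was 1018 to 1508 CPM in UUO_Si, 1119 to 1440 CPM in UUO and 134 to 224 CPM in sham kidneys. The median macrophage marker changed by 3.18 on the log2 scale in UUO, against 1.04 for the 47 members. All 5 fibroblast markers were called higher in both groups as well, with median log2 changes of 2.04 in UUO_Si and 2.60 in UUO. Of 11 T and NK cell markers tested, 5 were called higher in UUO_Si and 3 in UUO (Cd3e, Cd3g and Cd4). The share of 27.3% in UUO is near the 27.5% of all genes, and that in UUO_Si is 45.5%, where 27.2% of all genes were. The summed level of the 11 was 39.1 to 62.2 CPM in UUO_Si and 32.3 to 61.8 CPM in UUO. In sham kidneys it was 7.74, 6.71 and 30.5 CPM, the highest in sham replicate 3, which is among the 4 libraries that stood apart. The mean log2 level of these markers, set against the sham mean, was -0.77, -0.68 and 1.46 in the sham libraries. It was 1.14 to 1.96 in the obstructed libraries. The calls of these markers without sham replicate 3 are not given here. None of the macrophage markers was at 0 in any library, and in sham replicates 1 and 2 there were 4 and 2 T and NK markers at 0. Of the other immune lists, 0 of 3 B cell markers were called higher in UUO, 1 of 3 neutrophil markers (Csf3r) was, and of 4 plasmacytoid dendritic cell markers 1 was higher (Ly6d) and 1 lower (Smim5). Over all genes 27.5% were called higher and 26.4% lower, so counts of 0 or 1 among 3 or 4 markers do not set these lists apart. All 6 proximal tubule markers were called lower in both obstructed groups, where 25.5% of all genes were in UUO_Si and 26.4% in UUO. The part of these cell types in the levels of the members was not tested.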

How the data were processed

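RNA was extracted with the RNeasy kit and libraries were made with the SMARTer Stranded Total RNA-Seq Pico kit, per the labels' protocols. TopHat2 2.1.1, Cuffdiff 2.2.1 and build mm10 are named per the submitters' processing notes. The counting tool, its annotation and its strand setting are not stated there or elsewhere in the labels. The authors deposited 1 table of expected counts per gene for 15 libraries: 79.0% to 83.0% of a library's values are whole numbers and the rest fractional, and no pair of libraries was identical. Values were rounded to whole counts. Genes were filtered with edgeR's expression filter at a minimum count of 10, scaled by TMM and tested with edgeR 4.0.16 (quasi-likelihood, all 3 groups in 1 fit, R 4.3.3), with Benjamini-Hochberg adjustment over 16752 genes and a threshold of 0.05. CPM are rounded counts scaled to 1000000 per library, on the total of the tested genes times the TMM factor. Class means used log2 CPM with TMM factors and a prior count of 2. Standard errors are the log2 change divided by the root of the F statistic. Positions and exon lengths come from GENCODE M21 on GRCm38. The test was checked on simulated data.

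The members and lists were chosen with earlier results of these data known. Given with all libraries were, per class, the 2 highest and 2 lowest log2 changes in UUO against sham and the most abundant member per length, and between the diets the 4 smallest p. Alternatives were other scalings and filters, DESeq2 1.42.0, limma 3.58.1 (voom with sample weights), a fit of 2 groups, a replicate block, leaving out the 4 libraries that stood apart, leaving out each library, and removing Rn45s and haemoglobin genes. The result of 1 pathway gene is not reported here.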

Additional observations from a re-analysis of the deposited data

Results flagged for a closer look

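The highest library of 3 member and group combinations lay further from the rest of its 6 libraries than Dixon's 95% critical value of 0.625 allows. UUO_Si replicate 3 had 367 CPM of Gbp2, where the other UUO_Si libraries had 65.0 to 126 CPM, and 120.3 CPM of Irf1, where the others had 58.1 to 78.2 CPM. UUO_Si replicate 5 had 59.9 CPM of Trim30a, where the others had 35.4 to 42.3 CPM. In all, 94 combinations of member and obstructed group were examined, and chance gives about 1 in 20, or 4.7 of 94, against the 3 found.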

How the results depend on the processing

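The count of members called higher kept within 1.5 times of its value under every alternative run, at 36 to 41 in UUO against sham and 37 to 40 in UUO_Si against sham, and leaving out each library in turn gave 34 to 40 and 34 to 39. Between the diets 0 members were called under every alternative. DESeq2 called 2 of all genes lower between the diets, where edgeR called 0. With only the libraries of UUO and sham in the fit, 1 member (Gbp3) was called lower. Without the 4 libraries that stood apart the median log2 change of all members in UUO against sham was 1.29, against 1.04. The median of the Gbp and Irg class between the diets, 0.24, ran from -0.01 to 0.34 with 1 library left out and was -0.04 with limma-voom. The cause of these shifts was not tested.

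Mx2 changed sign without passing the test. In UUO against sham its log2 change was 0.13 with limma-voom, 0.084 with the replicate block and 0.40 without the 4 libraries, and ran from -0.32 to 0.13 with 1 library left out. In UUO_Si against sham these values were 0.015, 0.11 and 0.30, and -0.30 to 0.16. Trim25 in UUO against sham ran from -0.025 (without sham replicate 3) to 0.22 with 1 library left out. Outside the counts and class medians, single genes kept direction and call in 1811 cases, gained the call in 35, lost it in 42 and changed sign in 12.

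Same-numbered UUO_Si and UUO libraries deviated together with correlations from -0.39 to 0.75, and UUO and sham libraries from -0.29 to 0.19. The labels do not say what a number marks, and so the numbers were not taken as pairs. Of the 6 numbers, replicate 6 was the one whose UUO_Si library correlated best with its own number, and both libraries of that number are among the 4 that stood apart. With the replicate block, 39 members were called higher in UUO and 40 in UUO_Si than in sham, and 0 differed between the diets.

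Of the 21 ligand genes, 20 did not pass the filter on low counts and could not be tested.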
